A study of Mus musculus with 78 samples.

Results

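Polyadenylated RNA was compared between TRIM28-FKBP mESCs treated with 500 nM dTAG-13 for 6 h and the same cells treated with 0.05% DMSO, the vehicle. The comparison rests on 6 of the 78 samples of the series, 3 libraries per group, and on all genes of the deposited StringTie tables. Of 54446 genes listed, 17922 reached 1 TPM in 3 or more of the 15 time-course libraries and were tested. TPM is transcript abundance scaled to transcript length and depth, so that each library adds up to the same amount. The cells are V6.5 mESCs in which both groups carry the FKBP tag, an mRuby2 marker and a P2A sequence at the start of Trim28, from a colony picked after genome editing, so that a single clone stands behind all libraries. They were kept in serum and LIF and separated from feeder fibroblasts before treatment. The vehicle was added 24 h before collection and dTAG-13 6 h before, so loss of TRIM28 and the time since treated medium was added cannot be told apart in this comparison. Libraries of the same line given dTAG-13 for 2 h, for 24 h or for 96 h and nascent RNA libraries (TT-SLAM-seq) of 6 h and DMSO were used beside it. The labels do not say whether libraries came from separate cultures, so that the p-values measure the spread between these samples, which may be technical.

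TRIM28 is a corepressor that KRAB zinc finger proteins bring to endogenous retroviruses (ERVs), where it recruits the histone methyltransferase SETDB1 and H3K9me3 is laid down. dTAG-13 links the FKBP tag to an E3 ubiquitin ligase, after which the tagged protein is degraded. Steady-state mRNA lags behind transcription, since an mRNA that is no longer made disappears only at the rate of its decay.

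The libraries were close in coverage, between 0.751 and 1.22 of the median library of the time course, and Pearson's r across genes (which are not independent replicates) was between 0.991 and 0.994 within a group. All 20 core and naive pluripotency genes were at 1 TPM or more in all 6 libraries. Of 18 tested feeder fibroblast genes, 2 were higher (Acta2 and Tagln) and none lower at 6 h, with none higher and 1 lower with centring, none higher without DMSO replicate 1 or 2 or 6 h replicate 3 and 1 higher without any other library, and the list summed to between 424 and 436 TPM in DMSO and between 470.2 and 484 TPM at 6 h, with Fap and Lum at 0 in all 6 libraries. In TPM the 37 mitochondrially encoded genes summed to between 60028 and 79043 in DMSO and between 87813 and 118617 at 6 h, and the part of this shift in the results was tested by leaving these genes out. Trim28 itself had 622, 622 and 626 TPM in DMSO and 452, 538 and 495 TPM at 6 h. Its mRNA was lower in all 3 libraries at 6 h, by a log2 difference of -0.34 (SE 0.05, limma adjusted p = 0.00042), while dTAG-13 acts on the protein, which these tables do not measure.

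At 6 h, 139 genes were higher (0.776% of those tested) and 34 lower (0.19%) by more than 2-fold at an adjusted p below 0.05 (limma's moderated test on log2(TPM + 0.5), Benjamini-Hochberg over all genes tested). The groups did not overlap for 133 of the 139 and for all 34. Across all genes tested 24.9% lay above and 20.2% below all DMSO libraries, 45.1% in all, and the 173 changed genes are 0.965% of those tested. With each library centred on its median 92 were higher (0.513%) and 44 lower (0.246%), and among the 11927 genes with a mean of at least 5 TPM 41 were higher (0.344%) and 17 lower (0.143%). At any size of change, 3296 genes (18.4%) were higher and 2783 (15.5%) lower at the same adjusted p. That split differed with level. Of 1704 genes with a time-course mean of at least 100 TPM, 48.4% were lower and 8.86% higher. Of 5995 genes below 5 TPM, 4.09% were lower and 15.4% higher. The gene lists below were not matched for level. The split also moved with the scaling. Centring, which shifted the median gene by 0.091 (log2), gave 2023 higher (11.3%) and 4710 lower (26.3%). Leaving out the mitochondrial genes gave 4430 higher and 1926 lower. Gene groups are therefore described by counts under the main scaling, with the counts of another scaling where the balance of rises and falls turns round.

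**Figure D1:**
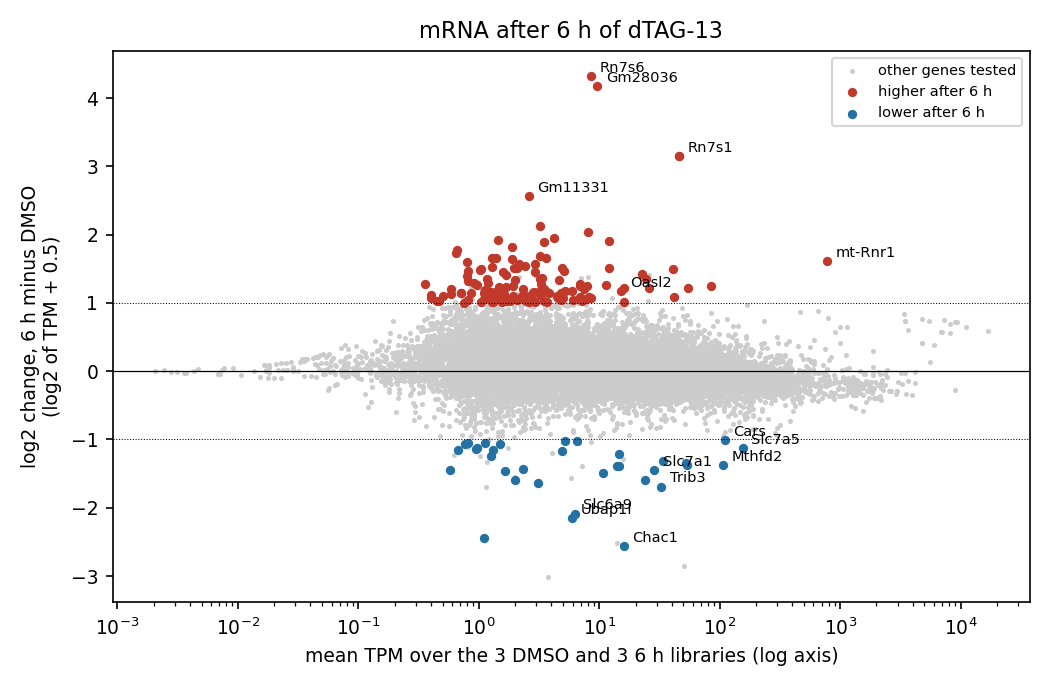
Log2 change at 6 h against mean TPM for each gene tested, with the 139 genes called higher in red, the 34 called lower in blue and the 2-fold limits as dotted lines. Most called rises lie at low TPM, while the labelled amino acid genes among the falls reach above 100 TPM.

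The clearest falls were in genes of amino acid supply. ATF4 is a transcription factor whose mRNA is translated when amino acids are short or the endoplasmic reticulum is stressed, and its targets make, import and load amino acids. Of 31 tested genes of an ATF4 amino acid response list, 27 fell (87.1%), none rose and 4 did not pass the test. Of all genes tested 15.5% fell, and of those with a mean of at least 100 TPM 48.4%. The median log2 difference of the list was -0.79, against 0.03 over all genes tested. Of the list genes, 12 fell by more than 2-fold, which is 38.7% of the list, against 0.19% of all genes tested. The count was 27 with centring, 26 without the mitochondrial genes and between 26 and 27 when each library was left out in turn.

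Chac1, which degrades glutathione and is a strong ATF4 target (ENSMUSG00000027313, chromosome 2, 119351229 to 119354381, mm10), had 27.9, 31.1 and 23.6 TPM in DMSO and 4.39, 3.89 and 4.39 TPM at 6 h. The groups were far apart, with a log2 difference of -2.56 (SE 0.13, adjusted p = 3.87e-08). Slc6a9, a glycine transporter (chromosome 4, 117834506 to 117875198), had 10.9, 9.63 and 10.8 TPM in DMSO and 1.71, 2.27 and 2.28 TPM at 6 h. Trib3, a pseudokinase that feeds back on ATF4 (chromosome 2, 152337422 to 152344032), went from 52.1, 51.8 and 47.1 TPM to 14.1, 16.6 and 15.1 TPM. No library of these 3 genes overlapped between the groups, and the log2 differences were -2.09 (SE 0.16) for Slc6a9 and -1.69 (SE 0.07) for Trib3. The stress-induced nuclear protein gene Nupr1 (chromosome 7, 126623249 to 126630861) fell from 36.2 ± 0.65 to 11.7 ± 1.74 TPM (SD, n = 3). Vldlr, a lipoprotein receptor, fell from 4.90 ± 0.519 to 1.27 ± 0.449 TPM and Stc2, a secreted glycoprotein, from 16.0 ± 0.847 to 5.33 ± 0.335 TPM.

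Transporters and enzymes fell beside them. The cationic amino acid transporter gene Slc7a1 (chromosome 5, 148327410 to 148399904) had 43.0, 42.3 and 41.3 TPM in DMSO and 14.5, 16.1 and 14.8 TPM at 6 h, a log2 difference of -1.45 (SE 0.05, adjusted p = 2.55e-09). Slc7a5, the large neutral amino acid transporter, had 219, 218 and 207 TPM and then 88.5, 104 and 101 TPM. Slc7a11, the cystine transporter, was low throughout, with 1.18, 1.07 and 1.11 TPM in DMSO and 0.239, 0.175 and 0.264 TPM at 6 h. Mthfd2, a mitochondrial enzyme of the folate cycle (chromosome 6, 83305691 to 83325908), had 159, 157 and 148 TPM in DMSO and 58.5, 59.7 and 59.5 TPM at 6 h. All of these lay below every DMSO library. Slc1a4, a neutral amino acid transporter outside the list, fell by 1.38 (log2). Solute carriers as a class did not share this: outside the ATF4 list, 47 of 242 tested solute carrier genes were higher (19.4%) and 33 lower (13.6%), near the 18.4% and 15.5% of all genes. With centring 34 were higher (14.0%) and 54 lower (22.3%), against 11.3% and 26.3% of all genes. The next members were chosen after their values were seen. Atf4 itself had 265, 263 and 271 TPM in DMSO and 181, 174 and 179 TPM at 6 h (log2 -0.58, SE 0.03), and asparagine synthetase, Asns, fell by 0.79 on the log2 scale. The 4 members that did not pass the test were Cebpb at -0.35, Ddit4 at -0.08, Ddit3 at 0.06 and Cebpg at 0.09 (log2 differences).

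The enzymes that load tRNAs with amino acids moved the same way. Of 20 tested cytosolic tRNA synthetase genes, 19 fell and none rose, with a median log2 difference of -0.57. That is 95.0%, against 48.4% of all genes with a mean of at least 100 TPM and 22.2% of those at 20 to 100 TPM. The count was 20 with centring and 16 without the mitochondrial genes. Cars, for cysteine, had 147 TPM in each DMSO library and 74.5, 71.2 and 72.4 TPM at 6 h, a log2 difference of -1.01 (SE 0.05, adjusted p = 5.02e-08). Yars, Aars, Sars, Nars and Gars, for tyrosine, alanine, serine, asparagine and glycine, followed with log2 differences of -0.95, -0.85, -0.84, -0.84 and -0.72. The exception was Rars, for arginine, at -0.11 (adjusted p = 0.104). Of the 34 genes lowered by more than 2-fold, 13 belong to the ATF4 or tRNA synthetase list. The other falls were of varied function. Ubap1l had 10.4, 9.57 and 10.2 TPM in DMSO and 1.93, 1.76 and 1.93 TPM at 6 h, and Fut1, a fucosyltransferase gene, 3.30, 3.00 and 3.42 TPM and then 0.717, 0.755 and 0.748 TPM. Adm2, which encodes a peptide hormone, fell by 1.43 on the log2 scale.

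**Figure D2:**
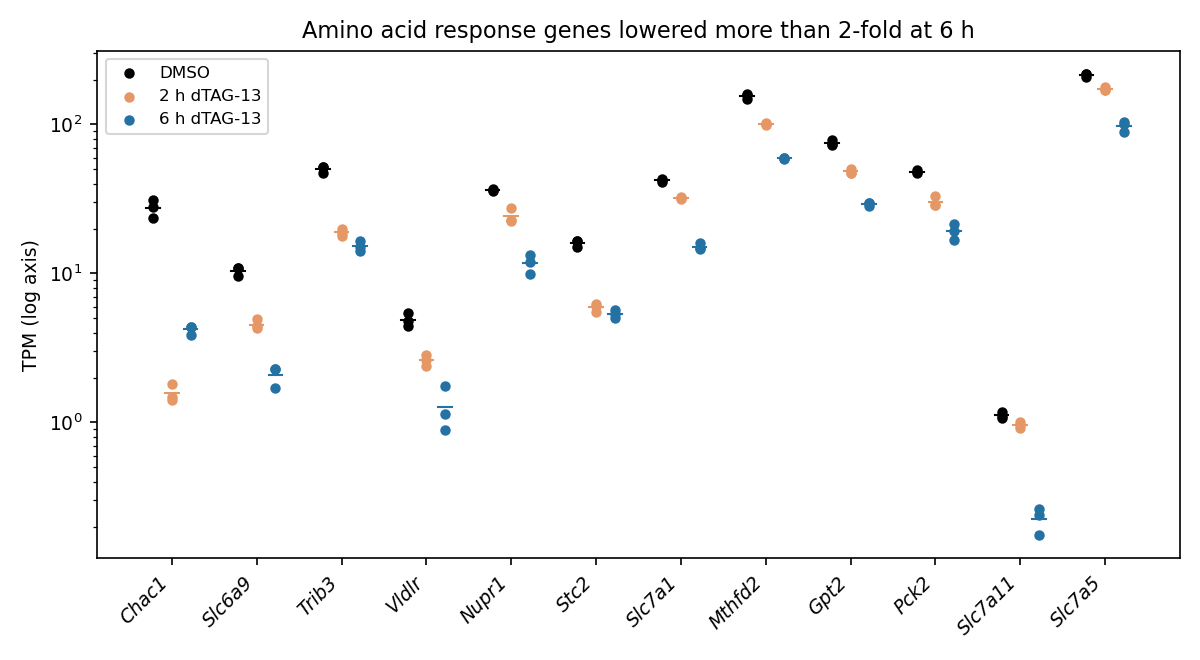
TPM (log axis) of the 12 ATF4 list genes lowered by more than 2-fold, with each library as a point and the group mean as a line, for DMSO (black), 2 h (orange) and 6 h (blue) of dTAG-13. At 6 h all 3 libraries of each gene lie below its DMSO libraries, and Chac1 is lower at 2 h than at 6 h.

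Promoter windows (250 bases before to 50 after the gene start, RefSeq, GRCm38.p6) were searched for TGATGNAA on both strands, a form of the element bound by ATF4 with C/EBP proteins. Of the 27 list genes with a window, 8 hold it (29.6%), all 8 of them among the 23 that fell and have a window. The share was 4.51% of the 27025 genes of the table and 2.76% of the 11294 tested genes that matched it. The list was chosen for response to ATF4, so its high share describes that choice and is no result of the 6 h libraries. Since 23 of the 27 fell, it says little that all 8 were among them. For the tRNA synthetases 5 of 12 windows hold it, but 8 of their 20 genes have no window, too many for a reading of the list. The windows of Chac1, Nupr1 and Slc7a11 are shown as examples from the 6 list genes that fell by more than 2-fold and hold the element, of which Pck2 and Vldlr also have it before a gene start and Trib3 has it after, with capitals marking each match, which on the strand shown reads TGATGNAA or TTNCATCA. They lie at chr2:119350992-119351291 (+ strand), chr7:126625421-126625720 (- strand) and chr3:50443564-50443863 (- strand) and read 5′ to 3′ along the gene:
Chac1: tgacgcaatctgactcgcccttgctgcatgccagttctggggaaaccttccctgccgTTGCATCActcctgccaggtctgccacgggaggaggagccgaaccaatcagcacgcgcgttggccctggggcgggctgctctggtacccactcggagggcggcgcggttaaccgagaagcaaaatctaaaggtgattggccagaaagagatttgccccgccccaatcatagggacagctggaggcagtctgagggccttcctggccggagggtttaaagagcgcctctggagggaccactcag
Nupr1: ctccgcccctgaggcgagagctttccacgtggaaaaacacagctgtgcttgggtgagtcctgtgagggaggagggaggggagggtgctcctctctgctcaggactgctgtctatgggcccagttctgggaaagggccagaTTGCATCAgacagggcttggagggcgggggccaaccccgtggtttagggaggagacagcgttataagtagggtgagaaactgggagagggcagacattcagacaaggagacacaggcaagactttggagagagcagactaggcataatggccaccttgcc
Slc7a11: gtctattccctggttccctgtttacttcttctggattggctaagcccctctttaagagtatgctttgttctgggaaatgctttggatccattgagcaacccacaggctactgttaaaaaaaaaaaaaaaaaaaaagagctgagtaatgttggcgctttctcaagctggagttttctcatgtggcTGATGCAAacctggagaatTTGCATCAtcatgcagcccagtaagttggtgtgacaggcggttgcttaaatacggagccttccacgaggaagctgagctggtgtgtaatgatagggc
The first base of the match stands at position -193 in Chac1, at -110 in Nupr1 and at -66 and -47 in Slc7a11, counted so that the base just before the gene start is -1. A match describes these letters only, and binding was not measured in these files.

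Nascent RNA did not show these falls in the genes that could be tested. Slc6a9, Vldlr, Nupr1 and Slc7a11, among the 12 list genes lowered by more than 2-fold in mRNA, were too low in nascent RNA to be tested. In TT-SLAM-seq at 6 h, where 7.82% of 13357 tested genes were higher and 1.27% lower, none of the 24 tested ATF4 list genes was lower and 3 were higher, with a median log2 difference of 0.03. By more than 2-fold, 0.374% of all genes were higher and 0.195% lower in nascent RNA. Chac1 had a nascent log2 difference of 0.51 (adjusted p = 0.0348) against -2.56 in mRNA. Trib3 stood at 0.07 (adjusted p = 0.802), Mthfd2 at 0.13 (adjusted p = 0.473) and Slc7a1 at -0.15 (adjusted p = 0.315). The nascent levels behind them were low, with group means of 0.739 and 0.778 FPKM for Trib3 and 0.41 and 0.795 FPKM for Chac1 in DMSO and at 6 h. At such levels log2(FPKM + 0.5) understates a fall. The 20 tRNA synthetases, all tested, had a nascent median of 0.08, with 3 higher and none lower. The labels give DMSO 24 h before collection for the mRNA libraries but 2, 6 or 24 h for either agent in TT-SLAM-seq, so the controls of the assays may differ in time, and the difference between the assays was not tested.

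**Figure D3:**
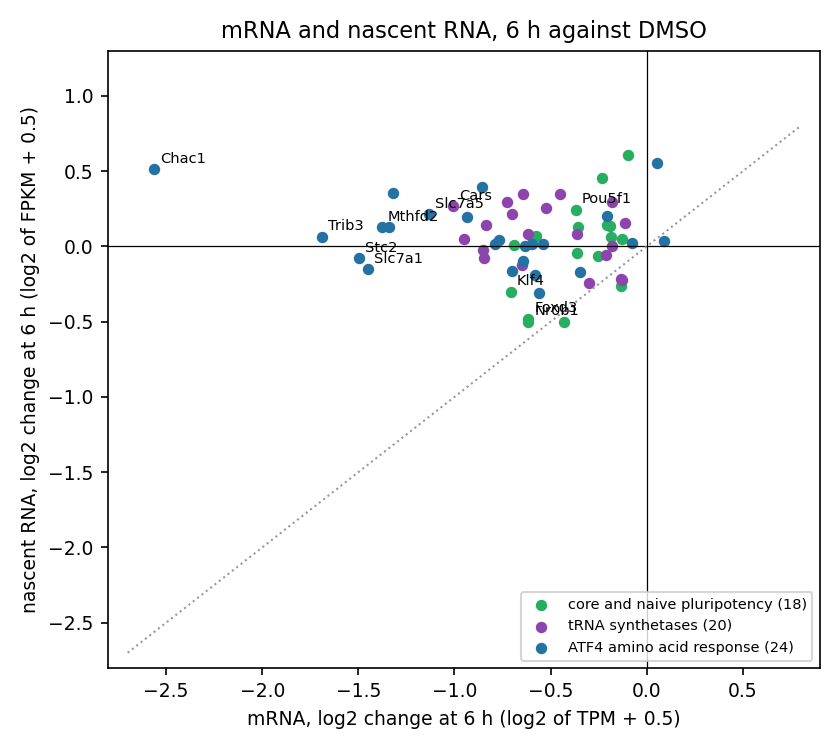
Log2 change at 6 h in mRNA (x axis) and in nascent RNA (y axis) for the members of 3 lists tested in both, with equal change as a dotted line. In nascent RNA, 17 of 24 ATF4 list genes (blue) and 13 of 20 tRNA synthetases (purple) lie above 0. So do 11 of 18 core and naive pluripotency genes (green). The labelled Klf4, Nr0b1 and Foxd3 lie below 0 on both axes, and of these only Nr0b1 passed the nascent test.

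The 2 h libraries, which also received dTAG-13 and are no part of the DMSO group, gave a contrast whose log2 difference does not use the DMSO libraries. These do enter the gene filter and the shared spread behind its adjusted p. Between 2 h and 6 h, where 16.2% of genes were higher and 12.9% lower at 6 h (0.407% and 0.0893% by more than 2-fold), 23 of the 31 ATF4 list genes were lower (74.2%) and 3 higher. Chac1 was among those that were higher at 6 h than at 2 h, by 1.19 (log2, adjusted p = 4.83e-05), with 1.42, 1.49 and 1.81 TPM at 2 h. Slc7a1 was lower at 6 h than at 2 h by a log2 difference of -1.07 (adjusted p = 1.48e-07), and 18 of the 20 tRNA synthetases were lower. Against the shared DMSO libraries, the median log2 difference of the ATF4 list was -0.35 after 2 h, -0.79 after 6 h, -0.85 after 24 h, and -1.42 at the last time of 96 h.

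Pluripotency genes fell by less. Of the 20 core and naive pluripotency genes, 15 fell (75.0%), none rose and none passed 2-fold, with a median log2 difference of -0.36. Of all genes tested 15.5% fell. The share was 22.2% at a mean of 20 to 100 TPM and 48.4% at 100 TPM or more. The count was 17 with centring, 12 without the mitochondrial genes and between 12 and 15 when each library was left out. Klf4, a naive pluripotency factor that responds to LIF (chromosome 4, 55527143 to 55532466), had 43.0, 45.5 and 43.9 TPM in DMSO, 37.6, 37.0 and 35.3 TPM at 2 h and 26.6, 27.4 and 26.4 TPM at 6 h. The 3 groups of libraries were apart, and 6 h differed from DMSO by -0.71 (log2, SE 0.04, adjusted p = 1.66e-07). Klf5 followed at -0.69, Nr0b1 and Foxd3 at -0.62 each, Esrrb at -0.59 and Zfp42 at -0.58. Esrrb, an orphan nuclear receptor, had 110, 106 and 108 TPM in DMSO, 108, 107 and 102 TPM at 2 h and 64.4, 81.6 and 69.5 TPM at 6 h, and so fell after 2 h. Foxd3, a forkhead factor, had 27.1, 29.3 and 26.8 TPM in DMSO and was already at 16.8, 17.5 and 15.9 TPM at 2 h, with a difference between 6 h and 2 h of 0.10 (adjusted p = 0.52).

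Of the core factors, Pou5f1, which encodes OCT4, had 1163, 1181 and 1141 TPM in DMSO and 838, 1004 and 866 TPM at 6 h (log2 -0.37, SE 0.08, adjusted p = 0.00262). Sox2 was lower by a log2 difference of -0.19 (adjusted p = 0.030), which missed the threshold without any 1 library other than DMSO replicate 3 (highest adjusted p 0.108). Nanog had 135, 142 and 132 TPM in DMSO and 129, 126 and 119 TPM at 6 h, and the difference of -0.13 did not pass the test (adjusted p = 0.136). Fgf4, the growth factor through which mESCs signal to themselves, had 138, 131 and 133 TPM in DMSO and 90.4, 108 and 100 TPM at 6 h, below all DMSO libraries, after 158, 163 and 156 TPM at 2 h. Mycn fell from 208 ± 6.05 to 139 ± 7.9 TPM (SD, n = 3) and Sall1 from 63.7 ± 0.87 to 49.6 ± 0.986 TPM. In nascent RNA, 2 of the 18 tested pluripotency genes were lower and 1 higher. Nr0b1, an orphan nuclear receptor, and Fgf4 were the lower ones, each at -0.50 (adjusted p = 0.0416 and 0.0244), and Nr5a2 was higher at 0.61. Genes nearest to a super-enhancer, a cluster of strong enhancers, numbered 214. Of these, 64 were lower (29.9%, against 15.5% of all genes) and 27 higher (12.6%, against 18.4%) in mRNA, with a median log2 difference of -0.08. In nascent RNA 44 of 187 were higher (23.5%) and 2 lower (1.07%). Over the 10340 genes tested in both assays these nascent shares were 8.92% and 1.42%.

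Other lists of falling genes were those of ribosomes, glycolysis and the germline. Of 89 cytosolic ribosomal protein genes, 71 fell (79.8%) and none rose, by a median of -0.21. Of all genes tested 15.5% fell, and of those with a mean of at least 100 TPM 48.4%. The ribosomal protein count ran from 51 to 74 when each library was left out and was 56 without the mitochondrial genes. Rps14 had 1559, 1659 and 1464 TPM in DMSO and 861, 1272 and 1136 TPM at 6 h. Ribosomal protein genes were also low in nascent RNA, with a median of -0.37 and 7 of 83 passing as lower. Of 19 hypoxia and glycolysis genes, 11 fell and 1 rose. Vegfa, the angiogenic growth factor, had 37.7, 36.0 and 39.9 TPM in DMSO and 21.6, 18.8 and 23.0 TPM at 6 h, and the glycolytic enzymes Pgk1 and Ldha fell by 0.52 and 0.50 (log2). Ankrd37 was the member that rose, from 5.40 ± 0.72 to 7.69 ± 1.06 TPM (SD, n = 3), and it missed the test without DMSO replicate 3 or 6 h replicate 1 or 2 (highest adjusted p 0.0907). Of 20 germline and meiosis genes, 9 fell and none rose, among them Mov10l1 at -0.61, Dppa5a at -0.58 and Ddx4 at -0.43. Among 15 mitotic genes 7 fell and none rose, with Ccnb1 the lowest at -0.33, but 4 fell without 6 h replicate 3, and 4 fell and 2 rose without the mitochondrial genes.

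**Figure D4:**
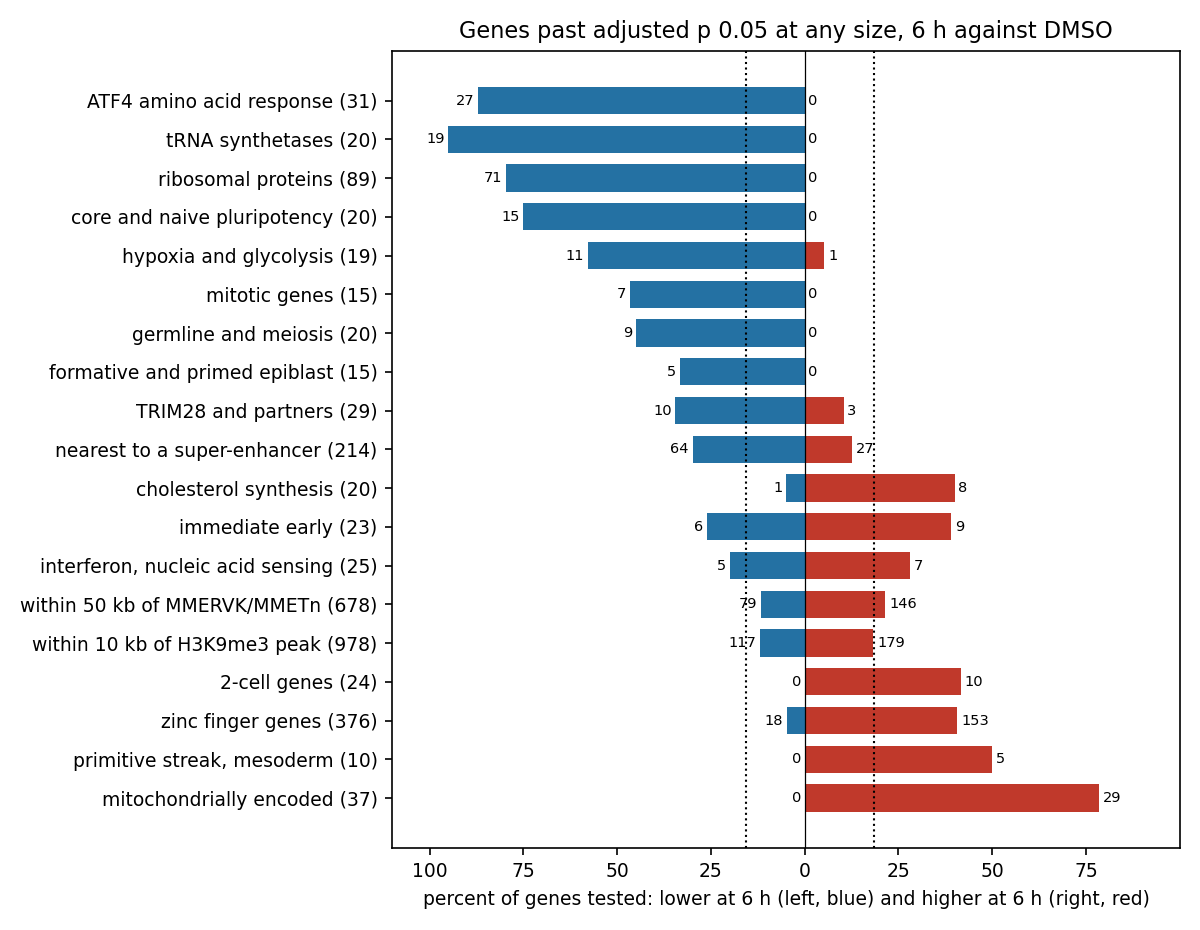
Percent of the tested genes of each list that were lower (left, blue) or higher (right, red) at 6 h at an adjusted p below 0.05, with the number of genes beside each bar and the number tested in parentheses. Dotted lines mark 15.5% lower and 18.4% higher over all genes tested. The share lower was 48.4% among genes with a mean of at least 100 TPM and 4.09% among those below 5 TPM.

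The rises by more than 2-fold were mostly not of protein-coding genes. Of the 139, 23 were protein-coding, 50 long noncoding genes or TEC (loci awaiting experimental checks), 54 small and structural RNA genes (10 of them mitochondrial) and 12 pseudogenes, while 26 of the 34 falls were protein-coding. As shares of the genes tested, 9.42% of 573 small and structural RNA genes were higher by more than 2-fold, 3.49% of 1434 long noncoding genes and TEC and 0.166% of 13847 protein-coding genes. At any size 27.4% of the long noncoding genes and TEC were higher and 2.44% lower. Of the 139, 49 are at most 200 bp long, 98 had a mean below 5 TPM over the time course, and 76 overlap another gene on the same strand, with which reads may be shared. Leaving out the genes of at most 200 bp left 90 higher and 32 lower, and leaving out those that overlap left 63 higher and 21 lower. Libraries were made by selection of poly(A) RNA, which most mature small RNAs lack, and whether these values are mature RNAs, precursors or reads of host genes was not tested.

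**Figure D5:**
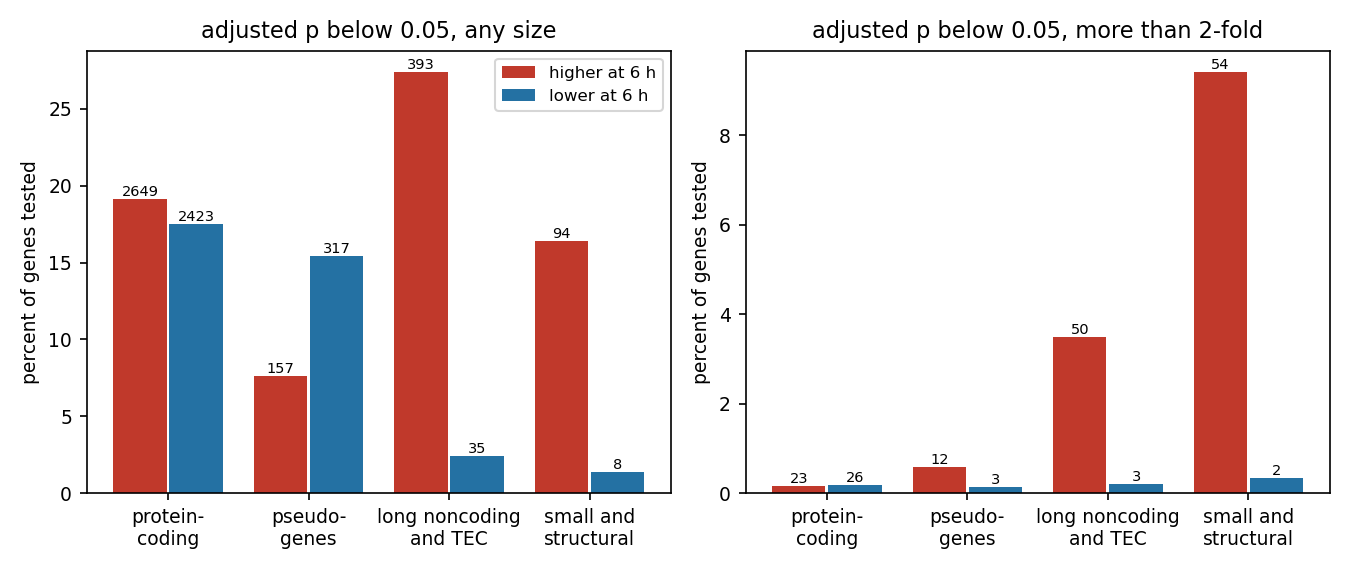
Percent of the tested genes of 4 classes that were higher (red) or lower (blue) at 6 h, at any size (left) and by more than 2-fold (right), with the number of genes above each bar. Among small and structural RNA genes 54 were higher and 2 lower by more than 2-fold.

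The 7S RNA genes were among the largest rises. Rn7s6 (chromosome 6, 69516339 to 69516629) was listed at 0, 1.54 and 0 TPM in DMSO and at 8.82, 19.5 and 21.6 TPM at 6 h. Rn7s1 (chromosome 12, 69159295 to 69159594) had 2.80, 7.84 and 21.3 TPM in DMSO and 39.7, 109 and 94.4 TPM at 6 h, a log2 difference of 3.15 (SE 0.68, adjusted p = 0.00338). The libraries did not overlap but spread widely within each group, and Rn7s1, Rn7s2 and Rn7s6 are copies between which reads may be split. Mitochondrially encoded RNAs rose as a group. Of 37 tested, 29 rose and none fell, 10 of them by more than 2-fold, with a median log2 difference of 0.71, and with centring 28 rose and 1 fell. The small ribosomal RNA mt-Rnr1 had 344, 334 and 451 TPM in DMSO, 643, 738 and 647 TPM at 2 h and 859, 1196 and 1466 TPM at 6 h. The tRNA gene mt-Tf had 3.17, 4.97 and 6.56 TPM and then 15.8, 20.2 and 21.7 TPM at 6 h, with the groups apart. In nascent RNA 30 of 32 tested mitochondrial genes were above 0 but 1 passed the test.

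Some changes came with shifts between overlapping genes. Kctd12 had 2.57, 2.07 and 2.02 TPM in DMSO and was listed at 0 in all 3 libraries at 2 h and at 6 h. Mir5130, a microRNA gene inside it on the same strand (chromosome 14, 102982549 to 102982632), went the other way, from at most 0.00171 TPM in DMSO to 0.699, 2.36 and 0.824 TPM at 6 h, and missed the test without any 1 of the DMSO libraries (highest adjusted p 0.0624). Gm28036, a protein-coding locus that overlaps Cpne1, Nfs1 and Rbm12, had 0, 0.957 and 0.105 TPM in DMSO and 2.98, 27.4 and 26.3 TPM at 6 h. One library at 6 h thus lay far below the others, while all 3 at 2 h lay between 20.3 and 27.2 TPM. Gm21981, which overlaps Tomm6 and Prickle4, had 20.3, 16.8 and 20.9 TPM in DMSO and 6.48, 15.7 and 3.29 TPM at 6 h. How StringTie divided reads between these genes was not tested.

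Among protein-coding rises, those of the interferon and nucleic acid sensing list and of the zinc finger genes stood at low or middle levels. Of 25 tested genes of the first list, 7 were higher (28.0%) and 5 lower (20.0%), against 18.4% and 15.5% of all genes. Oasl2, an interferon-induced gene (chromosome 5, 114896936 to 114912234), had 9.68, 8.21 and 9.58 TPM in DMSO, 8.29, 8.28 and 7.66 TPM at 2 h and 25.4, 18.2 and 20.7 TPM at 6 h. It rose after 2 h, with a log2 difference to DMSO of 1.17 (SE 0.11, adjusted p = 8.25e-06). Stat2, a transducer of interferon signals, had 13.1, 12.7 and 13.2 TPM and then 24.6, 20.1 and 21.9 TPM. Irf1, an interferon regulatory factor, had 43.4, 43.8 and 43.8 TPM in DMSO and 73.7, 71.7 and 66.6 TPM at 6 h. It was the only member higher in nascent RNA, by 0.74 (adjusted p = 0.0243). That is 1 of 12 tested there (8.33%), near the 8.92% of genes tested in both assays. Irf3 rose by 0.72 and Irf9 by 0.42 (log2). The members named here all rose, while the lowest of the list stood at -0.37 (log2).

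Zinc finger genes are a class with many KRAB members, which bind TRIM28. Of 376 tested, 153 rose (40.7%, against 18.4% of all genes) and 18 fell, with a median log2 difference of 0.19. With centring 103 rose (27.4%, against 11.3%) and 43 fell, and without the mitochondrial genes 201 rose and 13 fell. Zfp773 (chromosome 7, 7127073 to 7136755), 21.8 kb from the nearest MMERVK or MMETn element, was the only one past 2-fold, with 2.64, 2.13 and 3.32 TPM in DMSO and 6.76, 5.98 and 6.11 TPM at 6 h. Zfp420 had between 5.46 and 5.54 TPM in DMSO and then 9.84, 10.6 and 9.97 TPM, and Zfp322a rose from 23.4 ± 1.3 to 41.5 ± 3.58 TPM (SD, n = 3). In nascent RNA 21 of 266 zinc finger genes were higher (7.89%), near the 7.82% of all genes. The KRAB zinc finger genes with known ERV or imprint targets had 4 of 24 higher (16.7%, near the 18.4% of all genes) and none lower.

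Lists of developmental and early embryo genes did not move in the same direction. Over all genes tested, 18.4% rose and 15.5% fell. Of 10 tested primitive streak and mesoderm genes, 5 rose and none fell, and 3 rose without DMSO replicate 1 or 6 h replicate 3. T, the mesoderm factor brachyury, rose from 4.82 ± 1.01 to 8.09 ± 1.35 TPM (SD, n = 3), and missed the test without DMSO replicate 1 or 2 or 6 h replicate 1 or 3 (highest adjusted p 0.0964). Fgf8, a growth factor of the streak, had 2.72, 3.13 and 2.46 TPM and then 5.02, 3.87 and 4.77 TPM. The neural genes Pax6, Sox1, Olig2 and Nes rose and Tubb3 fell among 6 tested, though Olig2 missed the test without any 1 library other than 6 h replicate 1 (highest adjusted p 0.163) and Nes without DMSO replicate 1 or 2 or 6 h replicate 3 (highest adjusted p 0.074), and with centring 2 of the 4 rose. Pax6 had 5.19, 5.10 and 4.78 TPM in DMSO and 7.70, 7.92 and 7.60 TPM at 6 h. Of 24 tested genes of the totipotent 2-cell state, 10 rose and none fell, with a median of 0.24 (log2), and with centring 3 rose. The count was 5 without DMSO replicate 1 or 2 or 6 h replicate 1, 6 without 6 h replicate 3 and 14 without 6 h replicate 2. Tdpoz3 went from 1.12, 1.04 and 1.34 TPM to 2.51, 2.20 and 2.21 TPM. Endoderm genes had 5 lower and none higher of 24, the 5 being laminins or type IV collagens such as Lamc1 at -0.32 and Lamb1 at -0.26 (log2), and 2 were lower without DMSO replicate 1. Trophoblast genes had 2 higher and 1 lower of 13, with 1 higher and 5 lower with centring 1 higher without any 1 library other than DMSO replicate 2, and 2 lower without DMSO replicate 3. Among coding rises outside these lists, chosen after their values were seen, Sirt4, a mitochondrial sirtuin, had 7.75, 8.27 and 12.2 TPM in DMSO and 21.5, 19.2 and 26.6 TPM at 6 h, and Dhrs3, a retinaldehyde reductase, 2.77, 2.34 and 3.92 TPM and then 6.64, 7.00 and 6.18 TPM.

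Position near ERVs was compared because TRIM28 silences them, for the 1225 MMERVK and MMETn elements of the study's lists only. IAPs, an ERV family that the paper also reports as derepressed, were not included. Of 678 tested genes that start within 50 kb of an MMERVK or MMETn element, 146 were higher (21.5%) and 79 lower (11.7%). Of all genes 18.4% were higher and 15.5% lower. By more than 2-fold, 5 of the 678 were higher (0.737%) and none lower, against 0.776% and 0.19% of all genes. With centring 94 of the 678 were higher (13.9%) and 140 lower (20.6%) at any size, against 11.3% and 26.3% of all genes. Within 10 kb of an H3K9me3 peak found in DMSO, 179 of 978 were higher (18.3%) and 117 lower (12.0%). By more than 2-fold 7 were higher (0.716%) and 1 lower (0.102%), near the shares of all genes. With centring 108 were higher (11.0%) and 198 lower (20.2%) at any size. Gm11331, an unprocessed pseudogene (chromosome 13, 23266534 to 23266821) that starts within such an element and near H3K9me3, was among the rises by more than 2-fold. It had 0.263, 0.492 and 0.435 TPM in DMSO, 2.68, 5.19 and 3.14 TPM at 2 h and 4.95, 4.04 and 5.43 TPM at 6 h, a log2 difference of 2.57 (SE 0.21, adjusted p = 3.62e-06). Its log2 difference to the same DMSO libraries was 3.83 at 24 h and 4.31 at 96 h. Cthrc1, a secreted collagen-associated gene (chromosome 15, 39076932 to 39087121) whose start lies 2.86 kb from an element and near H3K9me3, had 16.6, 18.3 and 14.5 TPM in DMSO, 15.9, 18.9 and 17.8 TPM at 2 h and 29.1, 31.1 and 28.3 TPM at 6 h. It rose after 2 h by a log2 difference of 0.74 (adjusted p = 7.75e-05), and nascent RNA was higher by 0.74 as well (adjusted p = 0.0203).

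Across the 173 changed genes, nascent RNA at 6 h seldom passed the test in the same direction, and it seldom passed over all genes. Of the 10340 genes tested in both assays, 8.92% were higher and 1.42% lower in nascent RNA. Of the 139 higher genes, 101 were tested in nascent RNA, 57 were above 0 there and 7 passed as higher. Of the 34 lower genes, 21 were tested, 8 were below 0, none passed as lower and 3 passed as higher, namely Chac1, Aldh18a1 and Cars. Against 2 h, 62 of the 139 were higher at 6 h past the test and none lower, and 22 of the 34 were lower and 1, Chac1, higher. Of all genes tested 16.2% were higher and 12.9% lower in this contrast. The 6 h libraries by which these genes were picked also enter it, which tilts the counts toward the same direction. With the shared DMSO libraries, 98 of the 139 were higher by more than 2-fold at 24 h and 24 at 96 h, and 14 and 24 of the 34 were lower.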

How the data were processed

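RNA-seq libraries of TRIM28-FKBP mESCs (3 in DMSO, 3 after 6 h of dTAG-13, with 2 h, 24 h and 96 h in the same fit) were grouped by their labels. The members and gene lists were chosen with earlier results of these data known. For RNA-seq the authors trimmed reads with cutadapt 2.4, mapped them to mm10 with STAR 2.7.5a and made 1 gene table per library with StringTie 2.0.6, per the submitters' processing notes. The deposited TPM and FPKM are scaled by the authors to transcript length and depth. The deposited coverage signal per gene, not scaled by depth, served only to compare libraries, since read numbers are not in these tables, and the precision behind each value therefore comes from replicate spread alone. For TT-SLAM-seq the authors deposited gene FPKM made with SLAM-DUNK from reads that carry T-to-C conversions. For H3K9me3 in DMSO, the authors' peaks carry a fold enrichment, and the 10000 strongest per library were kept. A gene counted as near H3K9me3 if its start lay within 10 kb of any such peak in at least 2 of 3 libraries.

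Genes listed more than once in a table were summed. Genes that reached 1 TPM in 3 or more of 15 libraries (nascent: 0.5 FPKM in 3 or more of 12) were fitted on log2(value + 0.5) by lmFit and trended eBayes of limma 3.58.1, run in R 4.3.3, with Benjamini-Hochberg adjustment. Fold changes on this scale understate those of low genes. Changed means an adjusted p below 0.05 and more than 2-fold, and a list is counted at an adjusted p below 0.05 at any size. The script was tested on simulated data. Named are Trim28, the 15 largest rises and falls without overlap, at most 6 members per list by size, fixed example genes, and others marked as chosen later. Alternatives were pseudocounts of 0.1 and 1, no filter, a mean of at least 5, centring, FPKM, 6 libraries only, a replicate block, no trend and each library left out. Chosen after seeing the data were leaving out mitochondrial genes, a 24 h library of low coverage, short genes and overlapping genes. Gene types are from GENCODE, and elements and super-enhancers from lists of the study. Fold change columns by the authors were not used.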

Additional observations from a re-analysis of the deposited data

Results flagged for a closer look

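The change against DMSO differed between 6 h and 2 h of dTAG-13 by more than 2-fold in 14 of the genes named, with limma's test of the difference itself. The DMSO libraries cancel in that difference but enter the shared spread behind its adjusted p. Hmox1, heme oxygenase, was above DMSO by 0.40 (log2) at 2 h and below it by a log2 difference of -0.88 at 6 h, so that 6 h lay at -1.28 against 2 h (adjusted p = 3.59e-11). Oasl2 stood at -0.17 at 2 h and 1.17 at 6 h, a difference of 1.34 (adjusted p = 5.07e-06). Chac1 was lower at 2 h (-3.75) than at 6 h (-2.56), a difference of 1.19 (adjusted p = 4.83e-05). The falls that were larger at 6 h were those of Ubap1l by -1.57, Slc7a1 by -1.07, Nupr1 by -1.03 and Slc7a11 by -1.01 (log2, adjusted p at most 6.89e-05), and of Gm21981, which overlaps other genes, by -1.49 (adjusted p = 0.00863). Among structural and small RNA genes, Rn7s6 differed by 2.03, Rn7s1 by 1.95 and Rn7s2 by 1.94 (adjusted p = 0.0499, 0.0463 and 0.0463). Mir7028 differed by 2.06 (adjusted p = 0.00364), Mir1968 by 1.56 (adjusted p = 0.00112) and Gm25939 by 1.06 (adjusted p = 0.0338).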

How the results depend on the processing

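With a pseudocount of 0.1 in place of 0.5, 262 genes were higher after 6 h in mRNA, 178 higher and 27 lower against 2 h, and 115 higher in nascent RNA. With a pseudocount of 1 these were 67 higher and 22 lower, 26 higher against 2 h, and 30 higher and 15 lower in nascent RNA. A mean of at least 5 gave 41 higher and 17 lower, 16 and 8 against 2 h, and 4 and 6 in nascent RNA, where no filter gave 31 and 15. Centring gave 92 higher by more than 2-fold, 2023 higher and 4710 lower at any size, and 41 and 29 against 2 h. FPKM gave 52 higher and 19 lower. Leaving out genes of at most 200 bp gave 90 higher, and leaving out overlapping genes 63 higher and 21 lower. Both only took genes away from those already called, without a new fit. The cause of the other shifts was not tested.

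Without each library in turn, 115 to 173 genes were higher and 28 to 42 lower in mRNA, 55 to 80 higher and 16 to 31 lower against 2 h, and 21 to 88 higher and 6 to 47 lower in nascent RNA, the highest there without DMSO replicate 3 and the lowest without DMSO replicate 1. Against 2 h the most genes, 31, were lower without 6 h replicate 2. Named genes then ran from -2.67 (Chac1) to 5.17 (Gm28036). Slc25a32, at 0.04 (log2), turned to -0.0557 with centring, -0.05 without DMSO replicate 3 and -0.08 without 6 h replicate 2, and passed no test. Over all alternatives, 3299 values of named genes kept their direction and side of the threshold, 258 missed it and 8 passed it.

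A replicate block gave 137 higher and 36 lower in mRNA, 72 and 17 against 2 h, and 45 and 21 in nascent RNA. The labels share replicate numbers only. Deviations of DMSO and 6 h libraries of the same number correlated across genes at 0.014, 0.055 and 0.058, each the highest for its library, as a hint from the data and not the design. The coverage of 1 library at 24 h was 0.349 of the median, and without it 144 genes were higher and 34 lower. Read numbers were not used here, so counting error of low genes was not computed.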

Other observations

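Stress and sterol genes split within their lists, beside 18.4% that rose and 15.5% that fell over all genes tested. Of 18 unfolded protein and heat shock genes, 5 rose and 3 fell at 6 h, and 9 rose without the mitochondrial genes. Herpud1, of endoplasmic reticulum protein turnover, fell by 0.93 (log2) in mRNA while its nascent RNA was higher by 0.74, and Hspa5, the chaperone BiP, rose by 0.35. In the oxidative stress list, which shares Slc7a11 with the ATF4 list, 4 of 11 fell and 2 rose, and with centring 6 fell and none rose. A single gene of that list rose without DMSO replicate 1 or 2 or 6 h replicate 1 or 3. Of 20 cholesterol synthesis genes 8 rose and 1, Srebf2, fell, but with centring 1 rose and 8 fell, and between 3 and 5 rose without any 1 library other than 6 h replicate 3. Of 19 p53 targets 5 rose and 1 fell, with Ccng1 at 0.33 and Btg2 at 0.28 (log2 differences). With centring 2 of the p53 targets rose and 4 fell, and 3 rose without DMSO replicate 2 or 3 or 6 h replicate 1 or 2.

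Of 34 imprinted genes 3 rose (8.82%) and 6 fell (17.6%), against 18.4% and 15.5% of all genes tested. Among the falls were Grb10, a growth regulator, at -0.53 and Cdkn1c, a cell cycle inhibitor, at -0.29 (log2 differences). With centring none of the imprinted genes rose and 8 fell, without the mitochondrial genes 6 rose and 4 fell, and 1 rose without 6 h replicate 2. FGF-ERK feedback genes split into 5 higher and 5 lower of 15, with the phosphatase genes Dusp6 at 0.34 and Dusp4 at -0.32, and 3 were higher without 6 h replicate 2 or 3 and with centring, where 7 were lower. Of 29 genes of TRIM28 and its heterochromatin partners, 3 rose and 10 fell, with 19 falls and 2 rises with centring and 5 of each without the mitochondrial genes. Immediate early genes had 9 higher and 6 lower of 23, with 4 higher and 9 lower with centring and 10 higher and 3 lower without the mitochondrial genes, and 15 of them were lower at 6 h than at 2 h. Of 61 tested histone genes 4 rose and 2 fell, but 10 rose and none fell without 6 h replicate 1, and 1 rose and 10 fell without 6 h replicate 3.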
